A study of Mus musculus with 3 samples.

Results

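Genes of cell division were followed in mouse liver through 13 probe sets for 10 genes, which were listed by their IDs. The list sets no condition on a measured value, but it was chosen with earlier results of these data known. A probe set is a group of short array oligonucleotides that together read 1 stretch of a transcript. The deposited ratio table, which gives each array's log2 ratio to the median of all samples, has rows for 4 of the 13 among its 19882 probe sets. These 4 are 1454694_a_at for Top2a, 1417911_at for Ccna2, 1448226_at for Rrm2 and 1415945_at for Mcm5. The deposited value table, which gives log2 signals for 45101 probe sets, has rows for all 13. The platform annotation names 11 of the 13 as listed. It has no entry for 1419943_s_at and 1419944_at, which are called Ccnb1 here only because the list of members does so.

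Livers were taken from females of BALB/c, an inbred mouse strain, and each group was 1 array of RNA pooled from 6 animals. Young control mice were 10 weeks old and old control mice 50 weeks old, both on normal food. Old Chlorella mice were 50 weeks old and ate food with 2.0% powder of the green alga Chlorella. Ovalbumin sensitization stands in the title of the series and in no sample label. With 1 array per group there was no replicate error and no p-value, so every difference below is one between 2 pools of mice, and the number of arrays limits its precision. In whole liver, fewer dividing cells and less RNA per dividing cell cannot be told apart.

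Dividing cells switch on their genes in waves. Before DNA is copied, the E2F factors raise the genes for the MCM helicase and for nucleotide supply. Later a complex of MuvB, B-MYB and FOXM1 raises the mitotic genes through a DNA element known as the CHR. The CCAAT box is another element of mitotic gene promoters. In resting cells the E2F and CHR classes of element serve to hold these genes down. Adult hepatocytes rarely divide but can return to the cycle after injury or loss of tissue, and growing livers hold cycling hepatocytes, many of which become polyploid.

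Promoters of 4 members are shown because they hold letters of the DNA elements by which these classes of genes are known, and because these genes stand for replication (Mcm5), the mitotic kinase (Cdk1), a mitotic cyclin (Ccnb2) and chromosome structure (Top2a). Each line holds the 180 bases just before the annotated start in RefSeq's GRCm38.p6, read 5′ to 3′ on the strand of the gene. The Mcm5 stretch is chr8:75109329-75109508 on the plus strand, Cdk1 chr10:69352913-69353092, Ccnb2 chr9:70421555-70421734 and Top2a chr11:99024190-99024369, all 3 on the minus strand. Capitals mark a match, on either strand, to the CHR letters TTTGAA or TTTAAA, to CCAAT, or to the E2F letters TTTGGCGC, TTTCGCGC or TTTGGCGG.
Mcm5: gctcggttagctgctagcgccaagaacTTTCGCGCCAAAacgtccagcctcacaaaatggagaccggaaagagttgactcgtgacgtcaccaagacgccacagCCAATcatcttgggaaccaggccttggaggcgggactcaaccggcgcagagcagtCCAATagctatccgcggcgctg
Cdk1: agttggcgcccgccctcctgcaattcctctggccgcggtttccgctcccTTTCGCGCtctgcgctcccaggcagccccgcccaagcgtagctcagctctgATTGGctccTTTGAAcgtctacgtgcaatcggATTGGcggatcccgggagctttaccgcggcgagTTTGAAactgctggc
Ccnb2: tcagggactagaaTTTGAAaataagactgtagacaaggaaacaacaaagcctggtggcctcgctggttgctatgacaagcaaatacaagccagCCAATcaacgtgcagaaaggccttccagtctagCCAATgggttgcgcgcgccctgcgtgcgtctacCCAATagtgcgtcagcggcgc
Top2a: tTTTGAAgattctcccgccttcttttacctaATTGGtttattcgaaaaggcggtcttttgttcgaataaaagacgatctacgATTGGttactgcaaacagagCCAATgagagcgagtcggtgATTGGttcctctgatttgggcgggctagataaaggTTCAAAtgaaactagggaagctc

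RefSeq's promoter table, with 250 bases before and 50 after each start, held 9 of the 10 genes, without Ccna2. E2F letters were found in Cdk1, Mcm5 and Mcm6, that is in 3 of 9, and in 1.35% of all 32851 promoters of this length. In Mcm5 TTTCGCGC overlaps GCGCCAAA, the reverse complement of TTTGGCGC, so the capitals there run together. CCAAT was found in 8 of 9, all but Birc5, and in 37.4% of all promoters. CHR letters were found in 8 of 9, all but Mcm6, and in 27.6% of all promoters. Top2a had 6 matches to CCAAT, 5 of them as ATTGG on the opposite strand. These matches describe the letters of the windows and are not shown to be bound sites.

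Signals of the members ran from 3.91 to 7.76 (log2) in young control, from 2.999 to 6.999 in old control and from 2.99 to 7.32 in old Chlorella, with medians of 7.13, 6.22 and 5.91. The medians of all probe sets on these arrays were 6.07, 6.33 and 6.46, so the median of the members lay above that of all probe sets on the young array and below it on both old arrays. The ratio table gave a value for 4 members in young control, 2 in old control and 3 in the Chlorella group. The sources used here do not say why its other cells are empty, but empty cells go with weak signals. In young control a ratio was present for 33.1% of all probe sets with a signal between 6 and 7, for 67.3% between 7 and 8 and for 99.4% between 10 and 11. Differences between arrays were the same in both tables to within 0.001 (log2) for all probe sets with ratios, so the value table holds the same measurements without the empty cells. Values that only the value table gives are therefore mostly weak signals, and a missing ratio of a member is stated below.

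**Figure D1:**
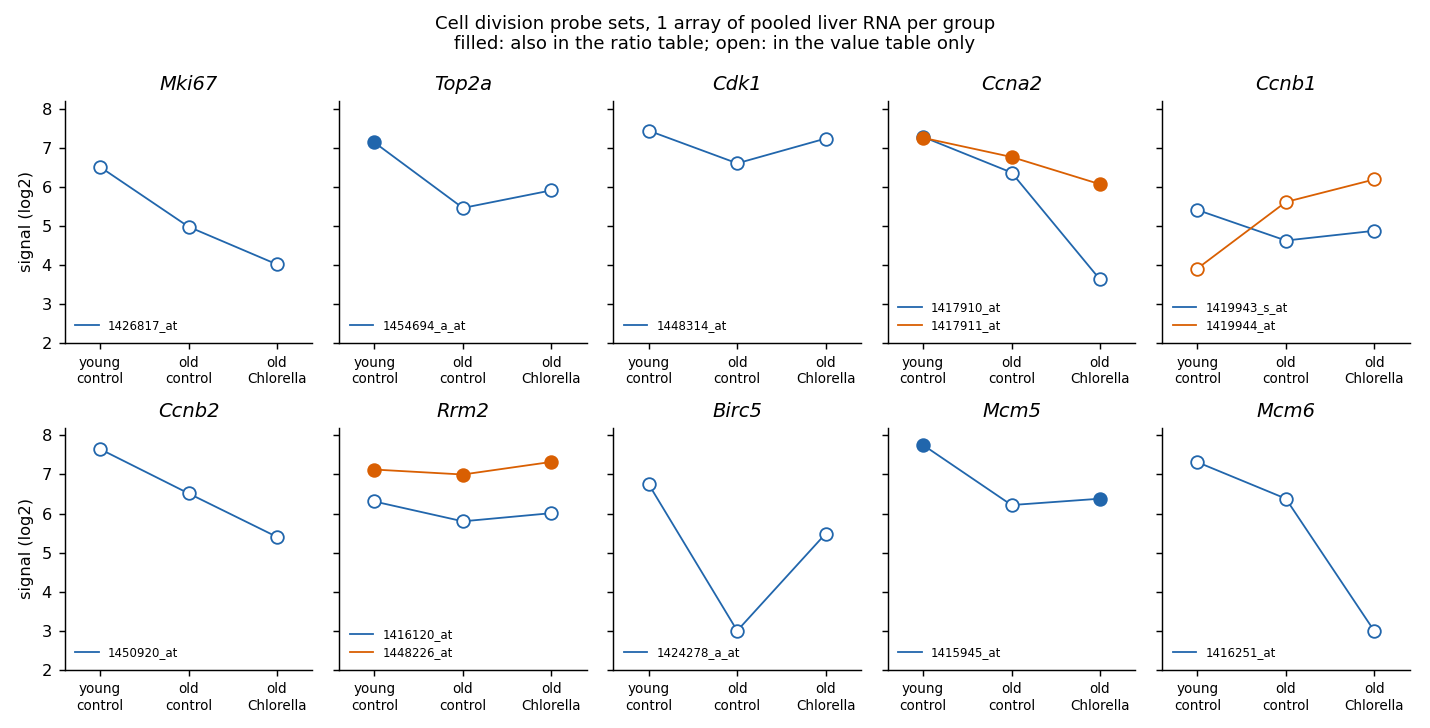
Signal of each cell division probe set (log2, vertical axis) on the 3 arrays (horizontal axis), 1 panel per gene and 1 line per probe set. Filled points also have a ratio, open points do not, and young control is the highest of the 3 arrays for 11 of 13 probe sets.

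The members of DNA replication and nucleotide supply are Mcm5, Mcm6 and Rrm2. All 4 of their listed probe sets were lower in old than in young control mice, where 47.8% of all probe sets were. Mcm5, a subunit of the MCM helicase that opens DNA for copying, had signals of 7.76, 6.22 and 6.38 (log2) on the young control, old control and old Chlorella arrays. Its ratios were 1.445 in young control and 0.070 in old Chlorella, with no ratio in old control. Young control was thus the high array and both old arrays lay close together, at -1.54 (log2; 2.91-fold) and -1.38 (2.59-fold) from it. Mcm6, another subunit of the same ring, had signals of 7.31, 6.38 and 2.99 in the same order and no ratio. The last of these is a difference of -4.32 (log2) from young control and of -3.39 from old control, so that old Chlorella alone was very low. On the scale of log2(value + 16), which shrinks differences of weak signals, these differences were -2.87 and -2.05.

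Rrm2 is the regulated subunit of ribonucleotide reductase, which makes deoxynucleotides for DNA. Its probe set 1448226_at was the steadiest of the members, with ratios of 0.064, -0.064 and 0.259 and signals of 7.13, 6.999 and 7.32 (log2) on the young control, old control and old Chlorella arrays. The 3 arrays lay within a difference of 0.323 in the ratios. Old Chlorella was 0.20 above young control here, which turned to -0.04 and -0.27 with the arrays shifted to the hybridization or the poly-A controls. The other probe set, 1416120_at, had signals of 6.31, 5.80 and 6.01 and no ratio, with old control lowest as in the first.

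Among the member cyclins and their kinase, every gene was lower in old than in young control mice on at least 1 probe set. The 2 probe sets for Ccnb1 disagreed. Ccna2, cyclin A2, acts from DNA replication to the entry into mitosis. Its probe set 1417911_at had ratios of 0.625, 0.134 and -0.563 on the young control, old control and old Chlorella arrays, and signals of 7.25, 6.76 and 6.06 (log2). Old control lay between the other arrays, and old Chlorella was 2.28-fold below young control. The second probe set, 1417910_at, had the same order with signals of 7.28, 6.36 and 3.62 and no ratio. Both therefore put old Chlorella lowest, but the difference from old control was -0.70 on the first and -2.74 on the second, the latter -1.80 on the log2(value + 16) scale.

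Cdk1, the kinase that drives mitosis with the cyclins, had signals of 7.43, 6.60 and 7.23 (log2) on the young control, old control and old Chlorella arrays, with no ratio. Old control was the low array, 1.78-fold below young control, and old Chlorella was at -0.20 (log2) from young control. Ccnb2, cyclin B2, a partner of Cdk1 in mitosis, had signals of 7.65, 6.52 and 5.40 and no ratio. Each step of this order was past 2-fold, at -1.13 from young control to old control and -1.11 from old control to old Chlorella. On the log2(value + 16) scale the steps were -1.01 and -0.88, so the second was no longer past 2-fold. Ccnb1, cyclin B1, the main partner of Cdk1 at the start of mitosis, was read at 5.40, 4.62 and 4.87 by 1419943_s_at. By 1419944_at it was read at 3.91, 5.61 and 6.19, so that young control was lowest there and old control 3.26-fold higher. This difference of 1.70 (log2) was 1.06 on the log2(value + 16) scale. The suffix _s_at marks a set whose oligonucleotides may also match other transcripts, and neither set had a ratio.

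Top2a, Mki67 and Birc5 are the members of mitotic chromosomes and of cycling cells. Their listed probe sets were highest in young control, where 34.3% of all probe sets were. Top2a, the topoisomerase that untangles DNA before the chromosomes part, had signals of 7.13, 5.46 and 5.91 (log2) on the young control, old control and old Chlorella arrays. Its ratio was 1.371 in young control, and both old arrays had none. Old control was 3.20-fold and old Chlorella 2.34-fold below young control. Mki67 encodes Ki-67, the nuclear protein used to mark cycling cells, and had signals of 6.51, 4.97 and 4.01 with no ratio. Old control was 2.89-fold below young control, and old Chlorella was 1.95-fold below old control. Birc5, or survivin, a part of the chromosomal passenger complex that corrects chromosome attachment, had signals of 6.75, 2.999 and 5.48 with no ratio. The old control value was the low one, at -3.75 (log2) from young control, with old Chlorella 2.49 above it. On the log2(value + 16) scale these differences were -2.36 and 1.34.

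**Figure D2:**
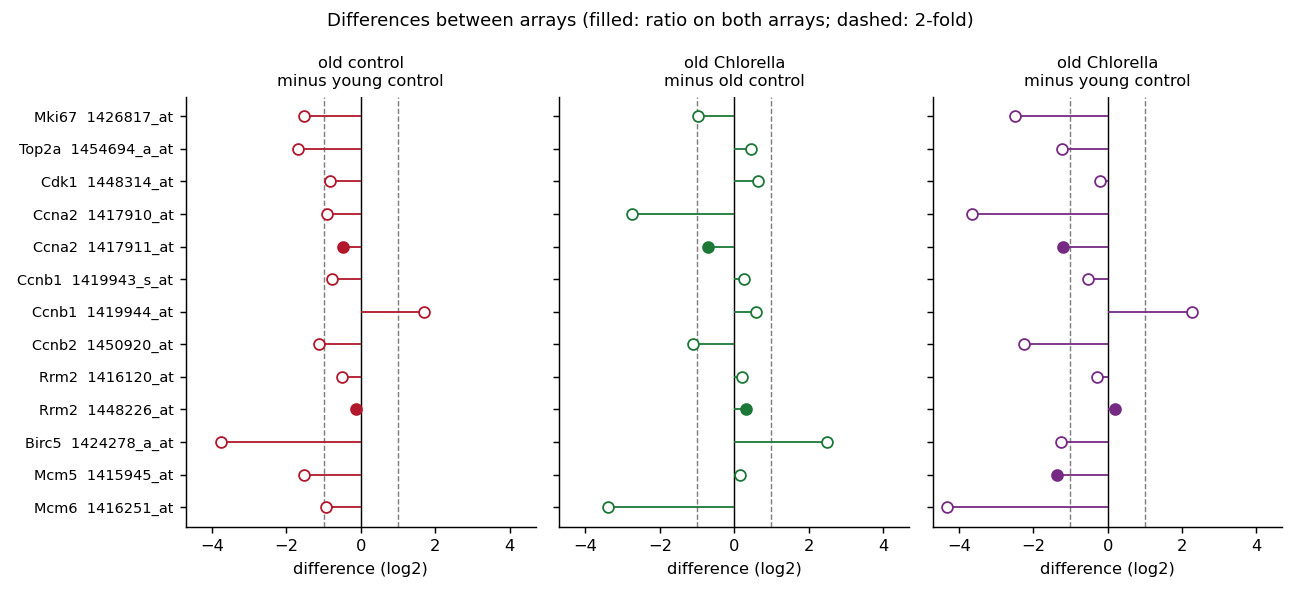
Differences in log2 signal between 2 arrays (horizontal axis) for the 13 probe sets (vertical axis), with dashed lines at 2-fold and filled points where both arrays have a ratio. In the age comparison 12 of 13 points lie below 0, with 1419944_at at 1.70 as the exception, and in the diet comparison 5 lie below 0.

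The first comparison, old control with young control, addresses the effect of age. Of the 13 probe sets, 12 were lower in old control, with 1419944_at for Ccnb1 as the exception. This count was 12 under all 4 other scalings tried. All 4 moved the median difference of all probe sets down, from 0.06 (log2) to between -0.03 and -0.49, so the count could hardly fall. In the value table as deposited, the share lower in old control was 47.8% of all 45037 probe sets. The median difference was -0.91 (log2) over the members and 0.06 over all probe sets. At 2-fold, 5 members were lower (Mki67, Top2a, Ccnb2, Birc5 and Mcm5), where 15.9% of all probe sets were, and 1 was higher, where 21.9% were. Among the 12933 probe sets whose mean signal lay in the range of the members, from 4.97 to 7.15, 40.1% were lower by any size, 13.1% were lower by 2-fold and 23.7% were higher by 2-fold. The members thus lay mostly on the side where fewer probe sets of their signal lay.

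Only 2 members had a ratio on both control arrays, 1417911_at for Ccna2 at -0.49 and 1448226_at for Rrm2 at -0.13 (log2), and neither passed 2-fold. Of 16667 probe sets in the ratio table, 8.8% were 2-fold lower and 9.55% were 2-fold higher in old control. The spread of weak signals was wide, since 95% of the probe sets in the signal range of the members had differences between -2.38 and 2.82. Of the members, Birc5 alone lay outside these bounds. The 2 probe sets of a gene share their transcript, and all 13 share the same pair of arrays, so they are not 13 separate measurements of age.

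**Figure D3:**
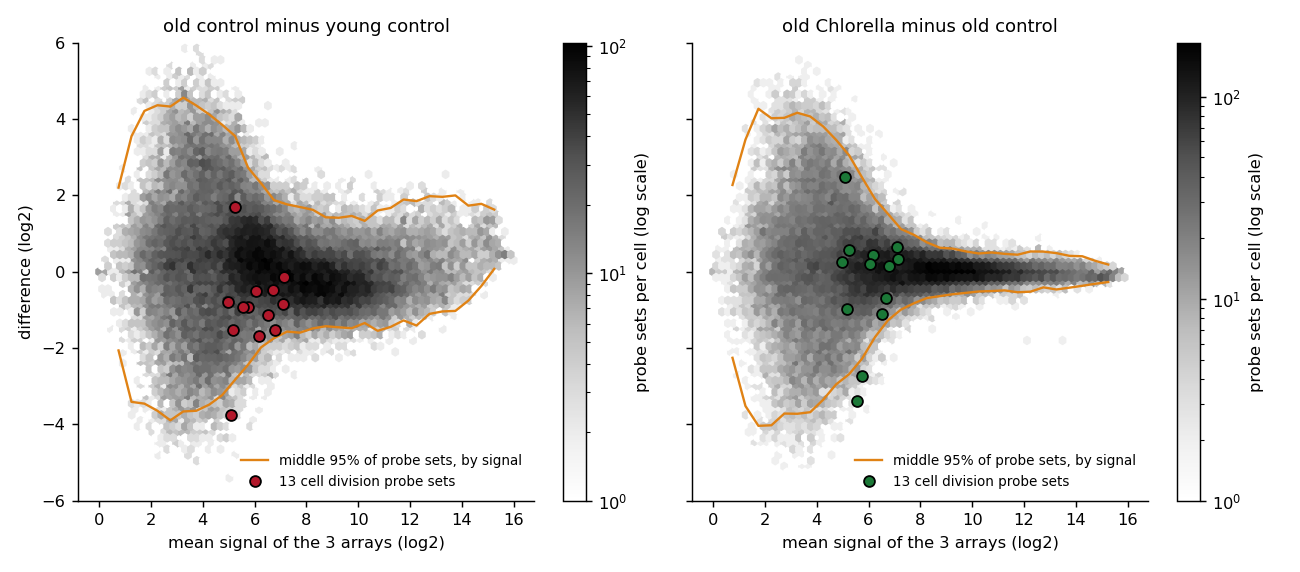
Difference between 2 arrays (log2, vertical axis) against the mean signal of the 3 arrays (log2, horizontal axis) for all probe sets, shaded by their number on a log scale, with orange lines around the middle 95% in steps of 0.5. The 13 members (coloured points) have mean signals from 4.97 to 7.15, where the spread between arrays is widening towards low signals.

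Other probe sets of the member genes on the array, which were not in the list, were also mostly lower in old control. There were 7 of them for 4 genes, of which 6 were lower and 3 were lower by 2-fold, where 47.8% and 15.9% of all probe sets were. Among the 3, 1447756_x_at for Mcm6 and 1459658_at for Mcm5 had very weak old control signals of 0.43 and 1.504 (log2). Mcm6 had a ratio on all 3 arrays at 1438852_x_at, with 0.931, -0.291 and 0.142 on the young control, old control and old Chlorella arrays. Old control was at -1.22 (log2) from young control there, as against -0.93 at the listed set. Mcm5 at 1436808_x_at had ratios of 0.888 and 0.329 on the control arrays, young first, and Rrm2 at 1434437_x_at had 0.429, -0.187 and 0.187. The exception was 1442454_at for Top2a, a weak signal of 4.75, 6.23 and 6.18 that was 1.48 higher in old control.

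The second comparison, old Chlorella with old control, addresses the effect of the algal powder at 50 weeks. It shares the old control array with the first, with the opposite sign. A low value on that array, as for Birc5, thus gives both a fall by age and a rise by diet, which are not separate results. The members split, with 5 of 13 lower and 8 higher in old Chlorella, and both counts were the same under the 4 other scalings. In the value table the shares lower by any size were 46.1% of all probe sets and 44.6% of those of like signal. At 2-fold, 3 members were lower (1417910_at for Ccna2, Ccnb2 and Mcm6), where 11.5% of all probe sets were, and 1 was higher (Birc5), where 15.9% were. Among probe sets of like signal these 2-fold shares were 10.6% and 15.7%. The 2 members with ratios on both old arrays were Ccna2 at -0.70 and Rrm2 at 0.32 (log2), neither past 2-fold, where the ratio table had 0.678% of 16524 probe sets lower and 0.841% higher.

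Probe sets of Mcm6 and Mcm5 disagreed in the diet comparison. Mcm6 was at -3.39 (log2) on the listed set, but at 0.43 on 1438852_x_at, which had ratios on all arrays, and at 3.82 on 1447756_x_at. Mcm5 was at 0.16 on the listed set, at -0.92 on 1436808_x_at and at 4.25 on 1459658_at. The last sets of both genes had old control signals of 0.43 and 1.504, among the weakest values here. Ccna2 was lower in old Chlorella on both of its sets.

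The third comparison, old Chlorella with young control, changes age and diet together and shares the young control array with the first. Of the 13 members 11 were lower in old Chlorella, where 43.9% of all probe sets and 35% of those of like signal were. By 2-fold 8 were lower, where 13% of all probe sets and 10.7% of those of like signal were. They were Mki67, Top2a, both sets for Ccna2, Ccnb2, Birc5, Mcm5 and Mcm6. Those higher were 1419944_at for Ccnb1 at 2.28 (log2) and 1448226_at for Rrm2 at 0.20, and 23.5% of all probe sets and 26.1% of those of like signal were 2-fold higher. Of the 3 members with ratios on both arrays, Ccna2 at -1.19 and Mcm5 at -1.38 were past 2-fold and Rrm2 at 0.20 was not, where 6.87% of 16572 probe sets in the ratio table were 2-fold lower and 8.32% were higher. Young control was the highest array for 11 of 13 members, where it was so for 34.3% of all probe sets and 23.6% of those of like signal.

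The wider cell cycle was read through 8 lists by role, with 265 probe sets for 122 genes, 11 of the probe sets being members. By age, 67 of the 265 were 2-fold lower and 37 higher in the value table, or 25.3% and 14% against 15.9% and 21.9% of all probe sets. With a ratio on both arrays there were 94 of them, of which 4 were lower and 11 higher, or 4.26% and 11.7% against 8.8% and 9.55%. The excess of lower values was thus seen in the value table and not among the probe sets with ratios. Asking for a ratio on both arrays leaves out sets that are weak on either, among them sets that fall to a weak signal. Top2a and Mcm5 of the members, with a ratio in young control and none in old control, were left out this way. The 94 therefore cannot show whether the excess is confined to weak signals, and other counts of sets with both ratios share this limit. Under the other scalings the 94 or fewer with ratios had from 2 to 28 lower and from 0 to 13 higher. After a shift to the hybridization controls 13 were lower and 3 higher, where 23.8% and 4.36% of all probe sets were. After a shift to the poly-A controls 28 were lower and 0 higher, where 42.6% and 2.13% of all probe sets were. In both cases the lists had a smaller share lower than all probe sets had.

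Spindle, kinetochore and cytokinesis genes had few ratios, on 16 of 74 probe sets (21.6%), where 44% of all probe sets had at least 1. By the value table, 26 of the 74 were 2-fold lower in old than in young control mice and 9 were higher, with a median of -0.54 (log2). These are 35.1% and 12.2%, against 15.9% and 21.9% of all probe sets. Cdca8 and Aurkb, which work in one complex with Birc5, were lower on all of their sets, down to -4.31 on 1436847_s_at and -4.05 on 1451246_s_at. Nusap1, a spindle microtubule protein, was lower on both sets, at -4.14 on 1416310_at and -1.33 on 1416309_at. Kif11, the motor that pushes spindle poles apart, disagreed between its 3 sets, at -4.41, -0.52 and 1.14. The sets furthest in the other direction were also weak and disagreed with other sets of their gene where there were any. Tpx2, which builds spindle microtubules, was at 2.56 on 1447518_at and lower on its other 3 sets, and Kif23, a motor of cytokinesis, at 2.28 on 1455990_at and lower on its other 2. Ndc80, a kinetochore subunit with 1 set, was at 1.99, and Racgap1, a regulator of cytokinesis, is listed at 0 in young control on 1441889_x_at and was lower with age on its other 2. All of these were weak signals with no ratio in old control. With ratios on both arrays, 0 of 8 were 2-fold lower, and Kif22, a chromosome motor, was higher at 1.03 on 1437716_x_at, while its other 2 sets, without ratios, were at -0.41 and -1.36. Nek2, a centrosome kinase, was at -3.10, -2.33 and -1.95 on 3 sets and at 0.82 on 1437579_at, the only one with both ratios.

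Transcription factors of the cycle were lower in old control on 13 of 18 probe sets and 2-fold lower on 8, with 1 higher. The shares are 44.4% 2-fold lower and 5.56% higher, against 15.9% and 21.9% of all probe sets, of which 47.8% were lower by any size. These are counts of the value table, and only 6 of the 18 had any ratio. Of the 4 with both ratios, 1 was 2-fold lower and 0 higher, with 2 below 0 and 2 above. Among all probe sets with ratios, 8.8% were 2-fold lower and 9.55% higher. Foxm1, which drives mitotic genes, was lower with age on all 4 of its probe sets. Its set 1448833_at had signals of 7.12, 5.49 and 7.25 (log2) on the young control, old control and old Chlorella arrays, with old control alone low, and on 1437138_at it is listed at 0 there. On 1448834_at the signals were 5.54, 3.43 and 2.72, with old Chlorella lowest. E2f8, a repressor among the E2F factors, had ratios of 0.998, -0.311 and 0.311 in the same order, and old control was 2.48-fold below young control.

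Genes of DNA replication went both ways among the probe sets with ratios. Gmnn, or geminin, which blocks a second round of licensing, had ratios of -1.205, 0.317 and 0.048 on the young control, old control and old Chlorella arrays. Old control was 2.87-fold above young control. Prim1, the primase that starts new DNA strands, was higher at 1.45 (log2), Orc6 of the origin complex at 1.18 and Rfc4 of the clamp loader at 1.05. Only Mcm6, at 1438852_x_at, was 2-fold lower among the 24 sets of this list with both ratios. Pcna, the sliding clamp of the replication fork, was chosen after its values were seen: it had ratios of -0.536, 0.225 and 0.094 and was thus 0.76 higher in old control. A shift of the arrays to the hybridization or poly-A controls lowers all age differences by one amount, after which 2 and 0 sets of the list were 2-fold higher and 1 and 6 were lower. All probe sets then had 4.36% and 2.13% higher and 23.8% and 42.6% lower. With array medians at 0 and with quantile normalization 5 and 3 sets were higher and 1 and 0 lower.

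Cyclins, nucleotide and chromosome genes with ratios also went both ways by age. Cks2, a small partner of Cdk1, was higher on both of its sets, at 1.16 and 1.17 (log2). Dctpp1, which clears faulty nucleotides, was higher at 1.25, and the histone variant gene H2afz at 1.47 and 1.07. Ccnd1, cyclin D1 of the first gap phase, was lower on its 3 sets, at -1.16, -0.87 and -0.53, with a ratio on every array. Old Chlorella lay close to old control for Ccnd1, with differences of 0.16, 0.02 and -0.11.

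Targets of the anaphase promoting complex and its subunits were 2-fold lower on 3 and higher on 1 of 10 probe sets in old control, and on 0 of the 4 with both ratios, where 15.9% and 21.9% of all probe sets in the value table were. Ube2c, the enzyme that starts ubiquitin chains for this complex, had signals of 7.67, 2.34 and 4.92 (log2), with old control lowest and no ratio. Cdc20, its mitotic activator, was lower on its 3 sets, at -0.81, -0.78 and -1.06. Genes of chromosome condensation were 2-fold lower on 7 and higher on 5 of 25. These are 28% and 20%, against 15.9% and 21.9% of all probe sets in the value table. Those with both ratios lay mostly in the other direction. Of 10 such sets, 0 were 2-fold lower and 2 higher, where 8.8% and 9.55% of all probe sets with ratios were. Among these 10, 8 were above 0, and the median was 0.25 (log2). Ncapg, a condensin subunit, was at -4.51 and -3.96 on weak signals.

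Inhibitors of the cycle were 2-fold lower on 2 and higher on 5 of 32 probe sets in the value table, and had a ratio on 21. These are 6.25% and 15.6%, both below the 15.9% and 21.9% of all probe sets. Cdkn1a, the p21 inhibitor, had ratios of 1.290, -0.160 and 0.160 on the young control, old control and old Chlorella arrays, and old control was 2.73-fold below young control. Wee1, the kinase that holds Cdk1 inactive, was higher at 1.03 (log2) on 1416773_at and lower at -2.02 on 1416774_at, which had no ratio. Gadd45b, a stress gene, was 1.22 higher in old Chlorella than in young control at 1450971_at.

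Among the wider lists the diet comparison gave 2-fold differences at about the share of all probe sets where ratios were present. Of 91 probe sets with ratios on both old arrays, 0 were 2-fold lower and 1 was higher (1.1%) in old Chlorella, against 0.678% and 0.841% of all probe sets with ratios, with a median of -0.11 (log2). The one was 1453815_at for Spc25, a kinetochore subunit, at 1.29, while its set 1424118_a_at was at -0.48. By the value table, 25 of 265 were lower and 48 higher, or 9.43% and 18.1% against 11.5% and 15.9% of all probe sets. The spindle list held 21 of the 48, or 28.4% of its 74 probe sets against 15.9% of all. Its median was 0.29 (log2), against 0.05 over all probe sets.

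**Figure D4:**
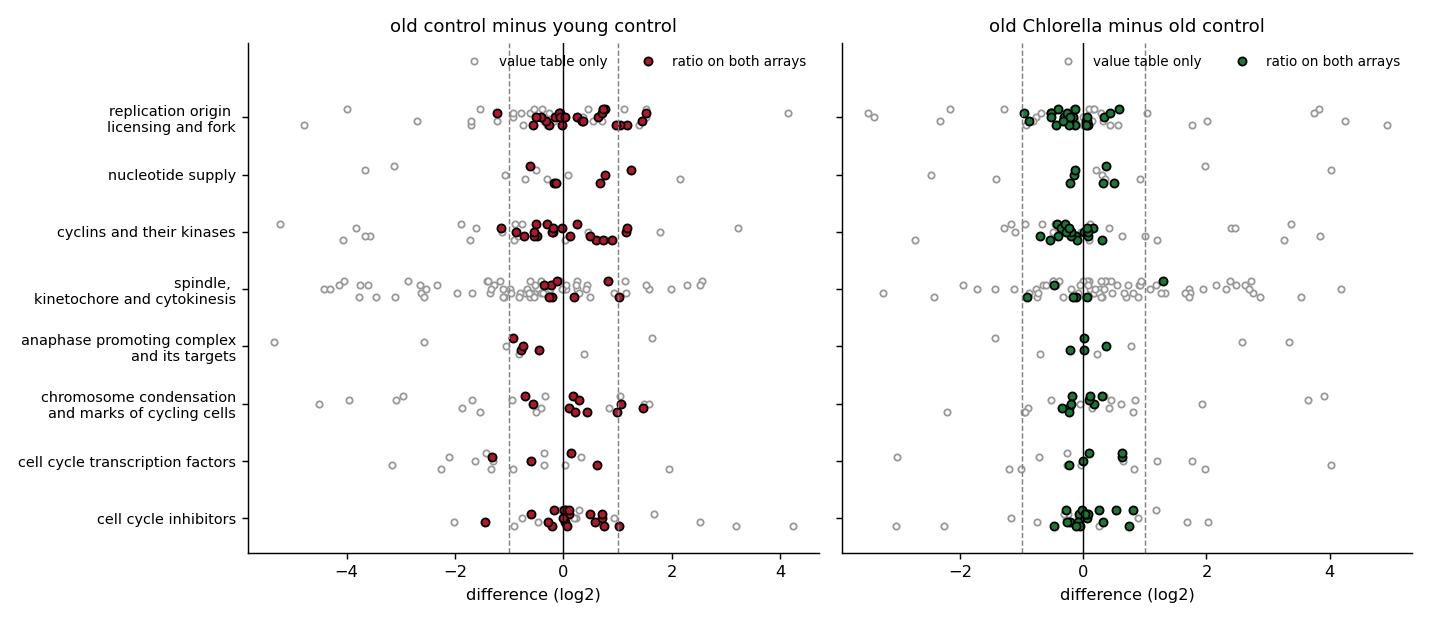
Difference in log2 signal (horizontal axis) of each probe set in the 8 role lists (vertical axis), with dashed lines at 2-fold and filled points where both arrays have a ratio. The filled points of the diet comparison stay within 2-fold but for Spc25 at 1.29, while open points, which are weak signals, scatter to 4.92.

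Markers of other liver cells differed between the same arrays, and 0 marker probe sets had a signal of 0 on any array. All 14 hepatocyte marker probe sets had ratios on the 3 arrays, and their summed signal was 0.35 (log2) higher in old than in young control mice. Of these, 11 were higher and 3 lower, with Apob, the protein of very low density lipoprotein, 2-fold lower on both sets at -1.32 and -1.40. The B lymphocyte and plasma cell markers were higher in old control on all 6 probe sets, by 2-fold on 4 of the 5 with both ratios, and their summed signal was 9.76, 12.16 and 12.18 on the young control, old control and old Chlorella arrays. Ms4a1, the B cell surface protein CD20, was 7.49-fold and 9.85-fold higher in old control on its sets. The summed signals differed by 0.83 for T and NK lymphocytes, 0.84 for macrophages, 0.73 for stellate cells, 0.57 for erythroid precursors, -0.62 for endothelium and -0.10 for bile duct. A sum follows its most abundant sets, and single sets went both ways, with 6 of 12 higher for T and NK lymphocytes, 6 of 10 for macrophages, 7 of 14 for stellate cells, 7 of 8 for erythroid precursors, 3 of 8 for endothelium and 5 of 7 for bile duct. Between the old arrays no summed signal differed by more than 0.24. The part of these cells in the levels of the division genes was not tested.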

How the data were processed

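Liver RNA of 3 groups was measured on 1 array each, with RNA of 6 mice pooled per array. The deposited ratio table gives log2 ratios with 3 decimals, which the authors formed per the file header as each array's normalized expression over the median of all samples. The deposited value table gives log2 signals per array. The submitters' processing notes name MAS5, a method that sums a probe set to 1 value, with no version. How arrays were scaled and why ratio cells are empty was not stated there. A ratio column headed only Old was read as old control, since Chlorella has a column to itself.

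The members, gene lists and thresholds were chosen with earlier results of these data known. Differences of log2 values between 2 arrays were computed with Python 3.11.15 and pandas 2.3.3, and a difference of at least 1 (2-fold) was called. The ratio table was the planned source. Since 9 of the 13 probe sets have no row there, the value table is given beside it. Control probe sets were left out of all counts. Of 45037 probe sets, 34945 had 1 gene symbol in the platform annotation, 932 several and 9160 none, and lists used those with 1. Named in the text are all members and, in each role list, up to 4 probe sets past 2-fold in each direction, by ratios or, in the spindle, transcription factor, anaphase and condensation lists, where the largest had none, by signals. Others are said to be chosen after their values were seen, or are further probe sets of the same gene. The calculations were tested on simulated data. Alternatives were array medians at 0, quantile normalization, shifts to 18 hybridization or 24 poly-A control probe sets, thresholds of 1.5-fold and 3-fold, log2(value + 16), only probe sets with 3 ratios, gene means and 1 probe set per gene.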

Additional observations from a re-analysis of the deposited data

How the results depend on the processing

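No paired analysis was possible because each group is 1 array, and no replicate could be left out. In the ratio table, 0 members with both ratios passed 2-fold by age in either direction. This became 1 lower with the poly-A controls, and 5 lower and 1 higher of 13 in the value table, with or without the added 16. By diet the ratio table gave 0 in either direction, 1 lower after quantile normalization or at 1.5-fold, 3 lower and 1 higher in the value table, and 2 lower and 1 higher with the added 16. For old Chlorella against young control the 2 lower became 1 after quantile normalization or with 3 ratios required, 0 at 3-fold, and 8 in the value table with or without the added 16, where 1 was higher. Fewer probe sets with a value, or a different threshold, make these changes by construction, apart from those of the scalings, where the cause was not tested.

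In the value table the 5 members lower by age became 9 with array medians at 0, 9 with the hybridization controls, 11 with the poly-A controls, 9 at 1.5-fold and 2 at 3-fold. With these scalings, in that order, the share of all probe sets 2-fold lower rose from 15.9% to 21.6%, 26% and 31.1%. The 1 member higher by age became 0 of 10 with gene means, also against old Chlorella. By diet 3 lower became 5 and 1 higher became 2 at 1.5-fold, and for old Chlorella against young control 8 lower became 4 at 3-fold. With the hybridization and poly-A controls, the median age difference of all probe sets moved from 0.06 (log2) to -0.34 and -0.49 in the value table. Among probe sets with ratios it moved from -0.11 to -0.52 and -0.87. Members lower there are thus partly lower with everything else. Of 8 role lists together, 1 probe set per gene changed the age count of 11 higher to 7, the diet count of 1 higher to 0, and the old Chlorella against young control counts from 7 lower and 8 higher to 2 and 5. The value table gave 67 lower and 37 higher by age, 25 and 48 by diet, and 55 and 35 for old Chlorella against young control. With log2(value + 16), 9 of 39 member differences moved by over 1.5-fold, all towards 0, and the diet call of Ccnb2 was the one lost. No called member reversed its direction under any alternative run.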

Other observations

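Growth signals that act on hepatocytes were read through a list of 19 genes, and p53 targets through one of 18, both chosen after the data were seen. Of 22 probe sets with ratios for the growth list, 7 were 2-fold lower and 1 higher with age, where 8.8% and 9.55% of all probe sets were, and the median was -0.70 (log2). Egfr, the receptor of epidermal growth factor, was lower on its 3 sets with both ratios, at -2.30, -1.74 and -0.98. Il6st, the signalling chain of the interleukin-6 receptor, was lower on 4 sets, from -0.93 to -1.56. Tgfa, a ligand of Egfr, was lower at -1.19, while Egf, another ligand, was higher at 1.37. Inhbe, a liver activin subunit, was 4.09-fold lower with age and 2.19-fold higher with Chlorella, both read against the same old control array. It was the only set of this list with ratios on both old arrays past 2-fold by diet.

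The p53 targets had a median of 0.54 (log2) over 18 probe sets with ratios. In old control 3 were past 2-fold higher and 1 lower, where 9.55% and 8.8% of all probe sets were. Ccng1, cyclin G1, was higher on its 3 sets at 1.03, 0.84 and 0.77, and Sesn1, a stress protein, on its 4 sets from 0.62 to 1.14. Fas, a death receptor, was higher at 1.05 (log2; 2.06-fold). Cdkn1a, the best known target of p53, was lower at -1.45. Of these 18 probe sets 0 passed 2-fold by diet, where only 0.678% of all probe sets were lower and 0.841% higher. Counts of both lists follow the deposited scaling and were not run under another.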
